A study of Mus musculus with 8 samples.

Results

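The 8 genes described here encode 5 caspases (Casp1, Casp2, Casp6, Casp9 and Casp12), the scaffold on which caspase-9 is activated (Apaf1), and 2 inhibitors of apoptosis proteins (Xiap and Birc2). They were chosen by symbol from the 55335 genes of the deposited count table, all 8 were found once, and all 8 were among the 15234 genes left after the filter on low counts. The data are poly(A)-selected RNA sequencing of whole liver from 8 female mice, each an independent animal. Mice 28, 34, 37 and 39 lack Ripk1 in hepatocytes (Ripk1-hepKO) and mice 29, 32, 40 and 41 are controls (Ripk1-Con). Every mouse of both groups received ethanol by the NIAAA chronic-plus-binge feeding model, in which an ethanol liquid diet is followed by 1 gavage of ethanol. Mice without ethanol were not analysed here, and the Cre driver, strain and age are not given in the sources used here. The series title puts the question as whether RIPK1 in hepatocytes limits ER stress-driven apoptosis and inflammation after alcohol.

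Caspases are cysteine proteases that cells make as inactive precursors. In the intrinsic pathway, cytochrome c released from mitochondria binds APAF1, the resulting apoptosome activates caspase-9, and caspase-9 cleaves the executioner caspases. XIAP binds and blocks active caspases, while cIAP1, the product of Birc2, is a ubiquitin ligase that modifies RIPK1 in the TNF receptor complex and so favours survival signals over death in the liver. Since caspases are switched on by dimerization and cleavage, mRNA counts give the supply of precursor and not its activity.

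Promoter sequences are shown for 3 members, because they cover the gene with the widest spread between mice (Apaf1), the member with the smallest p (Birc2) and the member with the lowest level per length (Casp12). Each is the 300 bases from 250 before to 50 after a RefSeq transcription start on GRCm38.p6, written 5′ to 3′ on the gene's strand. The windows are chr10:91082694-91082993 on the minus strand for Apaf1, chr9:7837008-7837307 on the minus strand for Birc2, where RefSeq lists a further start downstream, and chr9:5345226-5345525 on the plus strand for Casp12. Capitals mark matches to the motifs named in the next paragraph.
Apaf1: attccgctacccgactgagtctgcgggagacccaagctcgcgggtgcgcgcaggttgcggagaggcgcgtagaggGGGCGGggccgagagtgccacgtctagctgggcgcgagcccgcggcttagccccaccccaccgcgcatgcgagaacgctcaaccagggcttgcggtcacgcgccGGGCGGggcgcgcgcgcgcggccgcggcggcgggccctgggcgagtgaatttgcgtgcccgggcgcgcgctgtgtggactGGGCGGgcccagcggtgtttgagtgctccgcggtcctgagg
Birc2: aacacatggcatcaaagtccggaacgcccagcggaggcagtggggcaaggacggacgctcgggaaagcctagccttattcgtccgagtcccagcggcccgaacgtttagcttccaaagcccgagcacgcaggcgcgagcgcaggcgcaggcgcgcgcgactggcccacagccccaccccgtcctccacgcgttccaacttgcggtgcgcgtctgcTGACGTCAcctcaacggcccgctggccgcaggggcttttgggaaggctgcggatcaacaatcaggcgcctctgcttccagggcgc
Casp12: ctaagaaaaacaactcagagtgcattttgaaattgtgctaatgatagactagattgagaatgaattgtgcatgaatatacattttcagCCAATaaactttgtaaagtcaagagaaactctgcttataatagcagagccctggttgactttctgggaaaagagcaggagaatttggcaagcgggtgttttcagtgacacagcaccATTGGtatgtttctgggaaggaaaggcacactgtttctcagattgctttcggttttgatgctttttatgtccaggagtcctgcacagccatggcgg

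The Apaf1 window was the most CpG-rich of the 8 genes, with 46 CpG dinucleotides and 74.7% G or C, while the median of 32841 RefSeq promoter windows was 7 CpG and 52.7%. It held 3 matches to the GC box GGGCGG, a motif found in 35.7% of those windows. The Birc2 window had 34 CpG and 1 match to the cAMP response element TGACGTCA, present in 1.79% of windows. Casp12 and Casp1, which lie on either side of Casp4 on chromosome 9, each had 3 CpG. Casp12 had 2 matches to CCAAT, present in 37.4% of windows, and Casp1 had no match to any motif searched. Casp2 had 26 CpG, 2 GC boxes, 2 CCAAT matches and 2 matches to the E2F motif TTCCCGC, present in 4.598% of windows. Casp6 and Casp9 had 3 and 4 GC boxes, and the first listed Xiap window had 2. Both strands were searched, also for TATAAA (13.6% of windows), TGATGNAA of C/EBP-ATF elements (3.97%) and the p53 half-site (8.36%). None of these 3 matched in the windows of Casp1, Casp2, Casp6, Casp9, Casp12 or Apaf1, or in the first listed windows of Xiap and Birc2, which says only that these letters were not there. The other listed start of Birc2 had 1 match to the p53 half-site, 1 to CCAAT and 2 GC boxes, and the third listed start of Xiap had 1 match to TATAAA.

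Total counts per library ran from 28038390 to 67328158. Of the 8 libraries, Ripk1-hepKO mouse 28 had the lowest mean rank correlation with the others, 0.954 against 0.974 to 0.980. Values are therefore also given without it for many genes, though not for all that moved. Mouse 40, a control, had the next lowest (0.974) and the lowest sums of Kupffer cell, monocyte and macrophage, and neutrophil markers, and list medians are also given without both. The targeted gene Ripk1 did not separate the groups, with 23.1 to 38.1 CPM in Ripk1-hepKO and 27.8 to 53.6 in Ripk1-Con (log2 fold change -0.21 ± 0.22 SE; adjusted p = 0.866 in edgeR). A gene-level count cannot report deleted exons or which cells carried the reads, so the groups rest on the labels: each library is the one labelled with its genotype. CPM, counts relative to the library total, were scaled by the TMM method, and every fold change has Ripk1-Con as its base. In whole liver, fewer cells of a type and less RNA per cell cannot be told apart. The 10 hepatocyte markers, Alb among them, summed to 69660 to 91550 CPM in Ripk1-hepKO and 97690 to 113800 in Ripk1-Con, and the 10 stellate cell markers to 430 to 519 against 365 to 425 CPM. Neither pair of ranges overlapped, no marker of these lists was at 0 in all mice, and the part of cell content in the member results was not tested.

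No member passed the test between the genotypes. Of the 8 genes, 0 passed at an FDR of 0.05 in the quasi-likelihood test of edgeR, where 0% of all 15234 genes did, and adjusted p-values ran from 0.750 to 0.930. The DESeq2 Wald test called 0 members too (adjusted p from 0.602 to 0.964), against 0.237% of the genes it tested. At an unadjusted p under 0.05, edgeR gave 0 of the 8 members, beside 6.68% of all genes, and DESeq2 gave 1, Apaf1, beside 7.90%. Fold changes lay above 0 for Casp1, Casp12, Apaf1 and Birc2 and below 0 for Casp2, Casp6, Casp9 and Xiap, that is 4 of 8 above, beside 51.8% of all genes. The median log2 fold change was 0.07, against 0.01 over all genes tested. The values of 0 of the 8 members separated the groups without overlap, where 4.10% of all genes did.

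**Figure D1:**
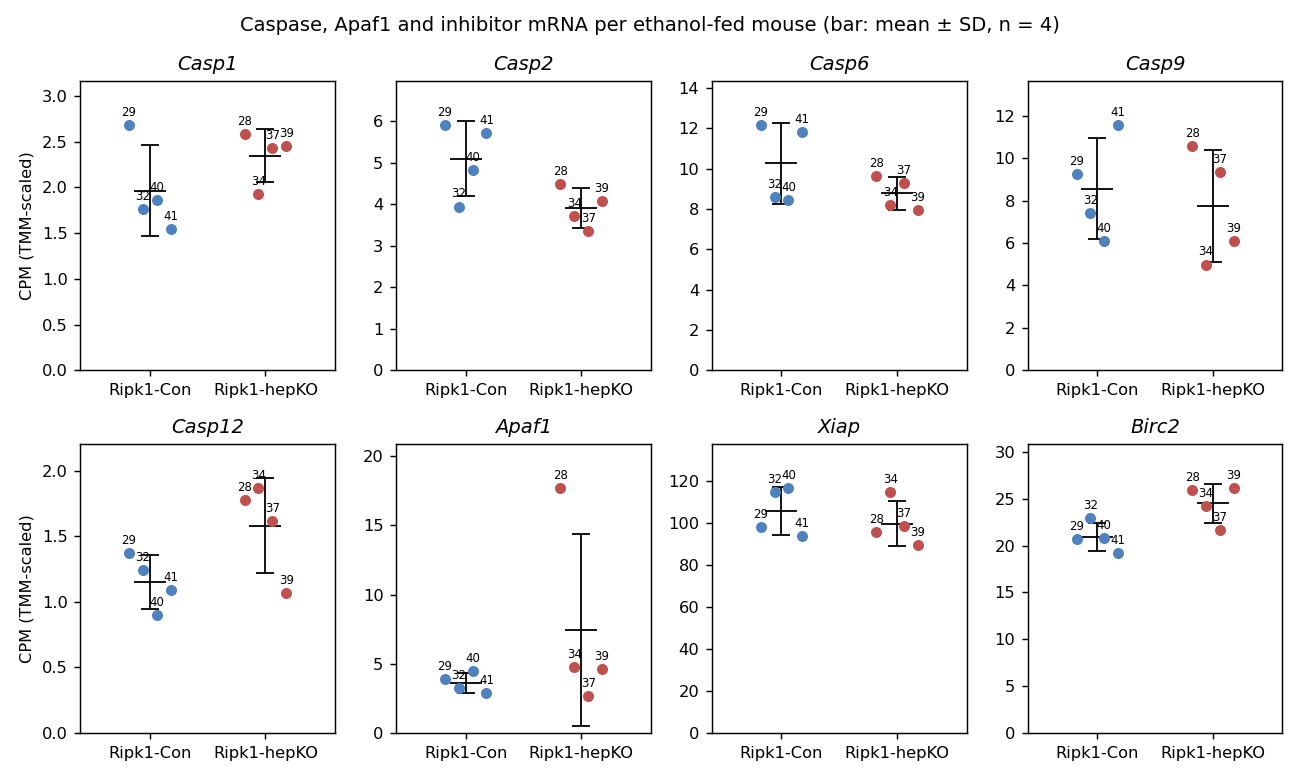
TMM-scaled CPM (y axes, from 0) of the 8 genes in each mouse, numbered, by genotype (x axes), with bars for the mean ± SD of 4 mice. The groups overlap for every gene, and Apaf1 in mouse 28 is at 17.7 CPM while the other 7 mice lie between 2.66 and 4.74.

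Apaf1 had the largest fold change of the 8 genes, and it came from 1 mouse. Apaf1 (ENSMUSG00000019979, chromosome 10, 90989311 to 91082770 on GRCm38, minus strand) encodes the cytochrome c sensor that assembles the apoptosome. It was measured at 17.7, 4.74, 2.66 and 4.62 CPM in Ripk1-hepKO mice 28, 34, 37 and 39. The controls 29, 32, 40 and 41 had 3.91, 3.23, 4.48 and 2.87 CPM. Mouse 28 stood 3.74 times above the next mouse, and the other 3 Ripk1-hepKO mice spanned the range of the controls. The high value rested on 966 counts, against 114 to 256 in the other libraries. The log2 fold change was 1.04 ± 0.53 (SE; adjusted p = 0.769 in edgeR), with a 95% interval from 0.892 to 4.76 in fold. Without mouse 28 it was 0.15. Mouse 28 was the highest of the 8 mice for 26.3% of all genes tested, was far above the other Ripk1-hepKO mice (by Dixon's gap within the group) for 3.87%, and exceeded the next mouse by the Apaf1 ratio or more in 0.565% of them, 86 genes. Monocyte and macrophage markers (188.9 CPM in mouse 28, 38.9 to 133.6 in the others) and neutrophil markers (49.3 CPM, against 3.85 to 36.2) were also highest in mouse 28. So were the markers of cholangiocytes (63.1 CPM, against 13.6 to 35.7), stellate cells (518.9 against 365 to 449 CPM) and B cells (6.60 against 2.26 to 5.90 CPM). Only 3 of 7 cholangiocyte and 1 of 6 B cell markers were above 1 CPM in any mouse. Spp1 is in both the cholangiocyte and the macrophage list. Kupffer cell markers were highest in mouse 41 and hepatocyte markers lowest in mouse 28. Whether the cell content of mouse 28 has a part in its Apaf1 level was not tested.

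Casp9, which encodes the initiator caspase of the apoptosome, did not follow Apaf1. Casp9 (ENSMUSG00000028914, chromosome 4, 141793612 to 141815976, plus strand) was measured at 10.6, 4.99, 9.37 and 6.10 CPM in Ripk1-hepKO mice 28, 34, 37 and 39. The controls 29, 32, 40 and 41 had 9.24, 7.40, 6.08 and 11.6 CPM. Both groups held 2 mice above 9 CPM and 2 below 7.5, and mouse 41, a control, was the highest. The means were 7.76 ± 2.64 and 8.57 ± 2.38 CPM (SD, n = 4 each), which is a log2 difference of -0.14 ± 0.28 (SE; adjusted p = 0.930 in edgeR). It was -0.33 without mouse 28, and its sign turned when mouse 34 or mouse 41 was left out. Exons of Casp9 share 94 bases with exons of Cela2a and of Ctrc on the opposite strand, both genes of pancreatic proteases. Those genes had at most 21 and 6 counts in any library, while Casp9 had 179 to 577.

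Casp6 and Casp2 were lower on average in Ripk1-hepKO, and neither passed. Casp6 encodes an executioner caspase that cleaves lamin A (ENSMUSG00000027997, chromosome 3, 129901425 to 129914103, plus strand). Its level was 9.64, 8.17, 9.30 and 7.94 CPM in Ripk1-hepKO mice 28, 34, 37 and 39. The controls 29, 32, 40 and 41 had 12.2, 8.58, 8.43 and 11.8 CPM. Only mice 29 and 41 were above 10 CPM, and the other 2 controls lay within the Ripk1-hepKO range, so that the log2 fold change was -0.23 ± 0.16 (SE; adjusted p = 0.804 in edgeR). Casp2, an initiator caspase that the PIDD1 complex activates (ENSMUSG00000029863, chromosome 6, 42264985 to 42282508, plus strand), had 4.49, 3.71, 3.36 and 4.08 CPM in the Ripk1-hepKO mice and 5.90, 3.94, 4.81 and 5.72 CPM in the controls, in the same order. Only control mouse 32 fell inside the Ripk1-hepKO range. The means were 3.91 ± 0.485 and 5.10 ± 0.904 CPM (SD, n = 4 each), which is a log2 difference of -0.38 ± 0.18 (SE; adjusted p = 0.756 in edgeR), with a 95% interval from 0.578 to 1.02 in fold. Without mouse 28 it was -0.45.

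Casp1 and Casp12 were higher on average in Ripk1-hepKO, with groups that overlapped, and neither passed. Casp1, which matures IL-1 beta and IL-18 and cleaves gasdermin D (ENSMUSG00000025888, chromosome 9, 5298517 to 5307265, plus strand), had 2.58, 1.92, 2.43 and 2.46 CPM in Ripk1-hepKO mice 28, 34, 37 and 39. The controls 29, 32, 40 and 41 had 2.68, 1.76, 1.86 and 1.54 CPM. Control mouse 29 was the highest of all 8, and the other 3 controls lay below every Ripk1-hepKO mouse. The log2 fold change was 0.26 ± 0.23 (SE; adjusted p = 0.830 in edgeR), and 0.45 without mouse 29. Casp12 encodes a caspase located at the ER in rodents (ENSMUSG00000025887, chromosome 9, 5345430 to 5373032, plus strand). It had 1.78, 1.87, 1.61 and 1.06 CPM in the Ripk1-hepKO mice and 1.37, 1.25, 0.897 and 1.09 CPM in the controls. Mice 28, 34 and 37 lay above every control, while mouse 39 fell among them. The log2 fold change of 0.45 ± 0.26 (SE; adjusted p = 0.770 in edgeR) rested on 27 to 97 counts per library, and was 0.61 without mouse 39. Casp1, Casp4 and Casp12 are adjacent related genes, and how reads were divided between them is uncertain.

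Of the inhibitors, Xiap was abundant and steady and Birc2 was slightly higher on average in Ripk1-hepKO. Xiap (ENSMUSG00000025860, chromosome X, 42059679 to 42109656, plus strand) stood at 95.8, 114.7, 98.9 and 89.6 CPM in Ripk1-hepKO mice 28, 34, 37 and 39. The controls 29, 32, 40 and 41 had 98.3, 114.7, 116.9 and 93.9 CPM. Values near 115 CPM occurred in both groups, and the highest mouse exceeded the lowest by 1.30 times. The log2 fold change was -0.09 ± 0.12 (SE; adjusted p = 0.898 in edgeR), and the 95% interval ran from 0.783 to 1.13 in fold. Birc2 (ENSMUSG00000057367, chromosome 9, 7818227 to 7837064, minus strand) had 25.9, 24.3, 21.7 and 26.2 CPM in the Ripk1-hepKO mice and 20.7, 22.9, 20.8 and 19.2 CPM in the controls, in the same order. Mice 37 and 32 crossed, and the other 3 of each group were apart. The means were 24.5 ± 2.08 and 20.9 ± 1.503 CPM (SD, n = 4 each), which is a log2 difference of 0.23 ± 0.10 (SE; edgeR unadjusted p = 0.0558, adjusted p = 0.750), the smallest p of the 8 genes. Its 95% interval ran from -0.01 to 0.46 on the log2 scale. Birc2 lies next to Birc3, its closest relative, and the split of reads between them is uncertain.

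**Figure D2:**
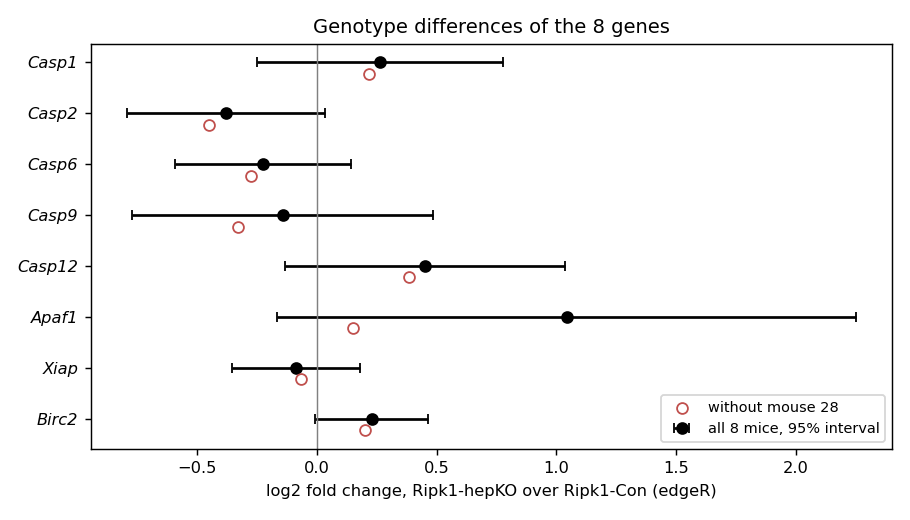
Log2 fold change of each gene, Ripk1-hepKO over Ripk1-Con (x axis), as filled points with 95% intervals over 8 mice and as open points without mouse 28. All 8 intervals include 0, and Apaf1 moves from 1.04 to 0.15 while the other 7 genes move by less than 0.2.

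Per kilobase of annotated exon the mRNAs of Xiap and Birc2 were above those of the member caspases in every mouse. This does not extend to caspases outside the members, since Casp8 had 7.26 to 17.7 CPM per kb. Xiap had 9.46 to 12.3 CPM per kb and Birc2 4.20 to 5.71, and neither range met that of another member. Casp6 (1.42 to 2.18 CPM per kb), Casp9 (0.960 to 2.23) and Casp1 (1.03 to 1.79) followed, with ranges over the 8 mice that overlapped, so their order was not resolved. Casp2 lay at 0.477 to 0.837 CPM per kb, below those 3 in every mouse. Apaf1 ranged from 0.295 to 0.525 CPM per kb in 7 mice and reached 1.96 in mouse 28, and Casp12 ranged from 0.234 to 0.486. Exon length here is the union over all annotated transcripts, which lowers the value of genes with long rarely used exons, and CPM per kb of mRNA is not an amount of protein.

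The members did not move as a block between mice. Patterns were compared by the root mean square difference of log2(CPM + 1), standardised per gene over the 8 mice, which is 0 for identical patterns and had a median of 1.37 to 1.44 against all genes of at least 5 CPM. Among the members, Casp6 and Casp9 were the most alike (0.634), then Casp2 and Casp6 (0.671), and all 3 genes were above their means in control mice 29 and 41. Apaf1 and Birc2 followed (0.858), both high in mouse 28. Casp6 and Birc2 were the least alike pair (1.81). The nearest genes of the table were Ptpn23 (0.159) and Srfbp1 (0.159) for Apaf1, with Ptpn23 at 58.3 CPM in mouse 28 and 18.8 to 25.5 in the rest. For Birc2 they were Zfp748 (0.303) and Tlr2 (0.377), a receptor for bacterial lipoproteins. Casp2 was nearest to 1300002E11Rik (0.300) and Dyrk2 (0.369), Casp6 to Fam20a (0.419) and Fhod1 (0.437), and Casp9 to Ostm1 (0.331) and Mindy2 (0.362). Casp1 was nearest to Dcxr (0.371) and Tk2 (0.437), Casp12 to Tm7sf2 (0.301) and Plekhg2 (0.350), and Xiap to Cdc73 (0.383) and R3hdm4 (0.389). These are the best of about 9362 genes compared over 8 mice and carry no test.

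**Figure D3:**
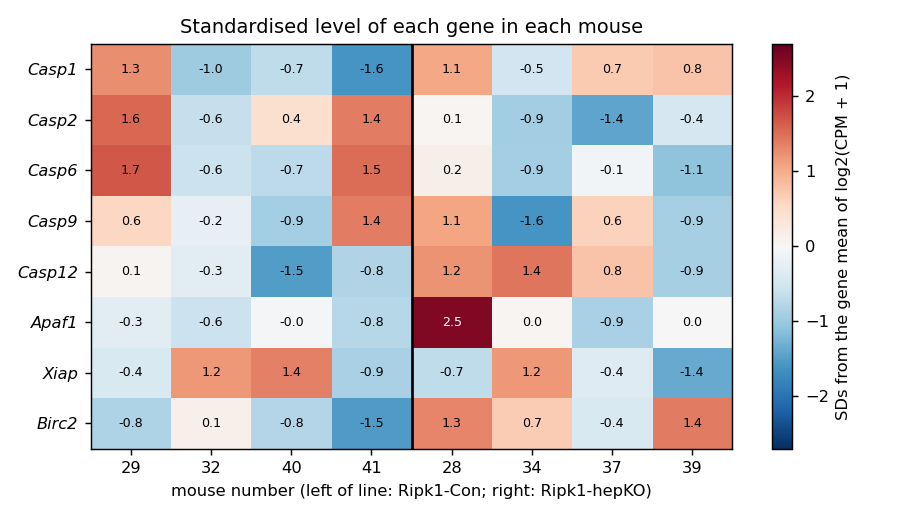
Level of each gene (rows) in each mouse (columns, controls left of the line) in standard deviations of log2(CPM + 1) from the gene's mean. Apaf1 is 2.5 SD above its mean in mouse 28 alone, and Casp2 and Casp6 are highest in control mice 29 and 41.

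Of the caspases outside the 8 genes, Casp4 and Casp8 did not pass either. Casp4, which senses cytosolic endotoxin, had 3.79 CPM in mouse 28 and 0.963 to 1.96 elsewhere (log2 fold change 0.67, and 0.30 without it). Casp8, activated at death receptors, had 20.99 to 45.7 CPM in Ripk1-hepKO and 25.2 to 51.2 in Ripk1-Con, with a log2 fold change of -0.29, which was -0.52 without mouse 28 and -0.68 without mice 28 and 40.

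Genes of mitochondrial release and the apoptosome had 4 of 8 fold changes above 0, the median log2 difference being 0.11. Without mouse 28, 6 of 8 were above 0 and the median was 0.12 (0.17 without mice 28 and 40). None passed over all genes tested. Bak1, a pore former of the outer mitochondrial membrane, had 13.9 to 20.5 CPM in Ripk1-hepKO and 9.88 to 12.3 in Ripk1-Con without overlap, as had 2.01% of all genes in that direction (log2 fold change 0.58 ± 0.15 SE; adjusted p = 0.742 in edgeR). The Bak1 fold change was 0.46 (log2) without mouse 28, its highest mouse. Htra2, a mitochondrial protease that releases caspases from IAP proteins, had a log2 fold change of 0.31 ± 0.15 (SE; adjusted p = 0.750 in edgeR). Cycs, which encodes cytochrome c, had one of -0.12, and Diablo, an IAP antagonist, one of -0.07 that was 0.0078 without mouse 28. Of the other IAP genes and caspase brakes, 6 of 12 measured genes lay above 0, with a median of -0.09. Without mouse 28 only 3 of 12 did, with a median of -0.10 (4 of 12 and -0.13 without mice 28 and 40). The 12 include Xaf1, an antagonist of XIAP and not a caspase brake (log2 fold change 0.08, or -0.02 without mouse 28). Birc3, which encodes cIAP2, had 10.98 to 17.7 CPM in Ripk1-hepKO and 7.27 to 9.49 in Ripk1-Con without overlap (log2 fold change 0.68 ± 0.18 SE; adjusted p = 0.742 in edgeR), while its neighbour Birc2 differed by 0.23. The Birc3 fold change was 0.51 (log2) without mouse 28, its highest mouse. Nol3, which encodes the caspase recruitment domain repressor ARC, had 1.41 to 2.73 against 1.19 to 1.46 CPM (log2 fold change 0.76 ± 0.25 SE; adjusted p = 0.742 in edgeR).

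In the inflammasome list around caspase-1, 12 of 15 measured genes had fold changes above 0 and the list median was 0.43 (log2). None passed over all genes tested with edgeR. At an unadjusted p under 0.05, 3 genes were higher and 1 lower, beside 3.86% and 2.82% of all genes. Without mouse 28 the list had 8 of 15 above 0, beside 50.7% of all genes, and a median of 0.15, and without mice 28 and 40 it was 7 of 15 and a median of -0.07. These are the mice with the highest and the lowest sums of monocyte and macrophage markers (188.9 and 38.9 CPM) and neutrophil markers (49.3 and 3.85 CPM), and the part of these cells in the list was not tested. Il1b had 19.4 CPM in mouse 28, 2.89 to 3.08 in the other Ripk1-hepKO mice and 1.33 to 2.57 in Ripk1-Con, giving a log2 fold change of 1.82, or 0.57 without mouse 28. Il1a had 3.93 to 6.34 against 1.99 to 3.21 CPM (log2 fold change 0.82 ± 0.23 SE; adjusted p = 0.742 in edgeR), and 0.63 without mouse 28. Gsdmd, the pore-forming substrate of caspase-1, had 21.7 to 23.9 against 16.05 to 19.96 CPM, a log2 fold change of 0.35 ± 0.11 (SE; adjusted p = 0.742 in edgeR), and 0.32 without mouse 28. Nek7, a kinase that licenses the NLRP3 inflammasome, had 47.5 to 49.9 CPM in Ripk1-hepKO and 59.3 to 72.4 in Ripk1-Con without overlap, as had 2.09% of all genes in that direction (log2 fold change -0.40 ± 0.09 SE; adjusted p = 0.742 in edgeR; DESeq2 adjusted p = 0.0445). The Nek7 value ran from -0.44 to -0.35 when single mice were left out. Nlrp12 and Nlrp6 were also below 0, with log2 fold changes of -0.54 and -0.31 (-0.76 and -0.10 without mouse 28). Il1rn and Il18bp, which encode antagonists of IL-1 and IL-18, count among the genes above 0. Their log2 fold changes were 0.44 and 0.27, or -0.54 and 0.15 without mouse 28. Il1b, Gsdmd, Nlrp12, Nlrp6, Il1rn and Il18bp, like Cycs, Diablo and Xaf1, fall outside the rule for named genes. They were chosen after their values were seen.

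The ER stress list, which also holds Capn1, Capn2, Bbc3 and Tnfrsf10b (each above 0), had 12 of 13 genes above 0. Its median log2 difference was 0.24, and none passed over all genes tested. Without mouse 28 these were 9 of 13 and 0.08, and without mice 28 and 40 they were 10 of 13 and 0.26. Control mouse 40 was the highest of the 8 mice for Trib3, Ern1, Capn2 and Tnfrsf10b of this list, and the lowest for Xbp1. Trib3 had 28.3 CPM in mouse 40 and 1.28 to 15.4 in the rest. Its log2 fold change was 0.13 without mouse 28 and 1.75 without mice 28 and 40. These genes fall outside the rule for named genes and were chosen after their values were seen. Ppp1r15a, the stress-induced phosphatase subunit GADD34, had 39.1 CPM in mouse 28 and 9.61 to 16.9 in the other 7, and Eif2ak3, which encodes the ER stress sensor PERK, had 63.7 CPM against 17.2 to 33.8. Their log2 fold changes of 0.81 and 0.65 were 0.31 and 0.27 without mouse 28 (0.44 and 0.37 without mice 28 and 40), the mouse that was also highest for Apaf1. In the caspase-2 list, 2 of 5 genes lay above 0 with a median of 0.00. The list had 3 of 5 and 0.05 without mouse 28, and 3 of 5 and 0.06 without mice 28 and 40. Its smallest p-values were those of Mdm2, a p53 inhibitor that caspase-2 cleaves (log2 fold change 0.13, or 0.05 without mouse 28), and Pidd1 (-0.13, or -0.05). Executioner caspase substrates had 7 of 12 above 0 and a median of 0.02, which was 0.06 without mouse 28 and 0.10 without mice 28 and 40. Lmna, the caspase-6 substrate lamin A, had 76.5 CPM in mouse 28 and 32.5 to 41.7 in the rest (log2 fold change 0.47, or 0.13 without mouse 28). Panx1, a caspase-cleaved membrane channel, had a log2 fold change of 0.73 ± 0.49 (SE; adjusted p = 0.792 in edgeR), which was 0.45 without mouse 40. The TNF receptor complex list, in which cIAP1 acts, had 6 of 11 above 0 and a median of 0.04, which turned to -0.06 without mice 28 and 40. Traf2, the adaptor that recruits cIAP1, had 10.04 to 13.1 CPM in Ripk1-hepKO and 7.77 to 9.10 in Ripk1-Con. These ranges did not overlap, as for 2.01% of all genes in that direction. The Traf2 log2 fold change was 0.38 ± 0.14 (SE; adjusted p = 0.742 in edgeR). Sharpin, a subunit of the linear ubiquitin ligase, had one of 0.28 ± 0.12 (SE; adjusted p = 0.742 in edgeR), and 0.23 without mouse 28.

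**Figure D4:**
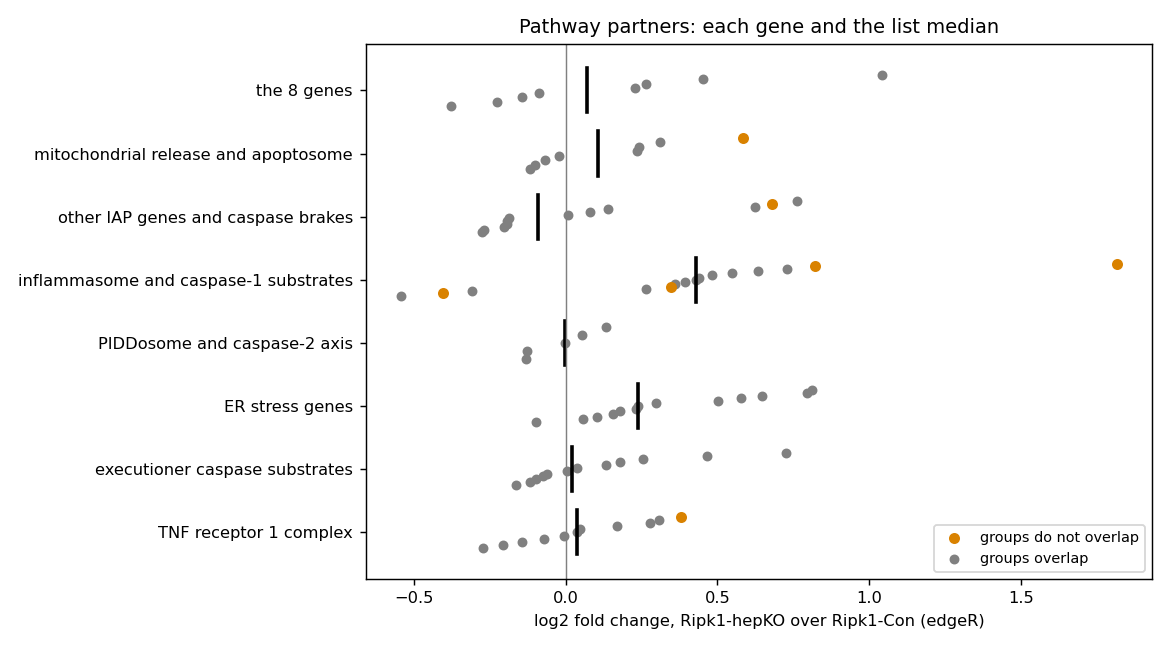
Log2 fold change, Ripk1-hepKO over Ripk1-Con (x axis), of the 8 genes and of the measured genes of 7 pathway lists (rows), with the median as a black line and genes whose groups do not overlap in orange. The inflammasome list has the highest median, 0.43, and none of the genes plotted passed an FDR of 0.05 in edgeR.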

How the data were processed

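Gene counts of 8 liver libraries were deposited by the authors in 1 table as whole numbers per Ensembl gene, not normalized. Per the submitters' processing notes the build was GRCm38.p6, and StringTie 2.2.1, STAR 2.5.2b, FastQC 0.11.5 and DESeq2 1.38.1 were used in steps that they do not specify. The annotation, counting tool and strand setting are not given in the sources used here. Libraries were poly(A)-selected and marked by dUTP, per the labels' protocols. Symbols, positions and exon lengths came from GENCODE M21 on GRCm38 (55154 of 55335 gene IDs matched), and promoters from RefSeq on GRCm38.p6, where all 8 members matched.

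Counts were filtered with filterByExpr, scaled by TMM and tested with edgeR 4.0.16 in R 4.3.3 (robust quasi-likelihood, genotype alone, Benjamini-Hochberg over 15234 genes). DESeq2 1.42.0 and limma 3.58.1 voom were alternatives, beside other scalings and filters and each mouse left out. Standard errors were derived from the quasi-likelihood F. Mouse numbers are not shared between groups, so nothing pairs the mice, and no libraries were alike within sampling noise (chi-square per degree of freedom at least 34.0). Reads carry no molecular identifiers, so the precision that 28038390 to 67328158 counts per library give is at best counting error. The common biological coefficient of variation was 0.292. On simulated counts of this comparison (14966 genes), the test recovered 55% of 200 genes changed 2-fold, with 7 false calls. The changed genes were drawn only from those above a floor of expected counts in the smallest library. The 55% therefore does not hold for genes of low counts or for changes below 2-fold. Simulated counts were drawn independently per gene, so no mouse stood apart over many genes as mouse 28 did. Recovery and false calls with such a mouse were not tested.

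Named are the 8 members, Ripk1, Casp8 and Birc3, the 2 genes of smallest p per pathway list, and the 2 nearest genes per member by pattern, and some results under this rule are not reported here. The members and lists were chosen with earlier results of these data known. Cell type levels are summed CPM of markers. The Kupffer cell list spanned 229.7 to 351 CPM in Ripk1-hepKO and 91.2 to 388 in Ripk1-Con, cholangiocytes 15.5 to 63.1 and 13.6 to 34.6, endothelial cells 182 to 279.7 and 140.0 to 252, T and NK cells 4.38 to 5.39 and 3.25 to 5.93, B cells 2.26 to 6.60 and 2.56 to 5.90, and erythroid cells 190.0 to 516 and 254 to 636.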

Additional observations from a re-analysis of the deposited data

Results flagged for a closer look

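The Apaf1 level of Ripk1-hepKO mouse 28, 17.7 CPM, was far from the other 3 mice of its group, with a gap to the nearest that took 0.862 of the group's range (above Dixon's 95% critical value for 4 samples). The members gave 16 groups of 4 mice, and chance flags about 1 in 20, counting any mouse at either end. As the highest of its group, mouse 28 was set apart in this way for 3.87% of all genes tested, 590 of 15234. That share covers 1 mouse at 1 end, so it cannot be set against the 1 in 20.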

How the results depend on the processing

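None of the 8 members passed an FDR of 0.05 under any of 17 alternatives (lowest adjusted p 0.513), and the number of genes called was 0 except with the DESeq2 Wald test, which called 36. edgeR gave 1017 genes at an unadjusted p under 0.05 and DESeq2 1199. Of 136 member values under these alternatives, 134 kept their direction. Casp9 (-0.33 to 0.0359 with single mice left out) turned to 0.0245 without Ripk1-hepKO mouse 34 and to 0.0359 without Ripk1-Con mouse 41, and the cause was not tested. The Apaf1 log2 fold change ran from 0.15 to 1.33 over the alternatives, and was 0.75 with limma voom and 0.41 with sample quality weights. Birc2 ran from 0.19 to 0.29, Casp1 from 0.16 to 0.45, Casp2 from -0.49 to -0.30, Casp6 from -0.36 to -0.13, Casp12 from 0.29 to 0.61, Xiap from -0.16 to 0.00 (below 0 throughout) and Casp9 from -0.48 to 0.0359. At an unadjusted p under 0.05 there were 0 members under 9 alternatives and 1 or 2 under the other 8, where 4.89% to 9.48% of all genes were. These were Birc2 and Casp2 under 4 alternatives each, Apaf1 under 2 and Casp12 under 1. The precision for Casp12 and Casp1 is limited by 27 to 141 counts per library. No paired analysis was possible because the groups share no mouse number.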
